A study of Mus musculus with 8 samples.

Results

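The connexins that couple the cells of the heart were followed in mouse hearts carrying a hypomorphic allele of *Kdm1a* (*Aof2*), the gene of the lysine demethylase Lsd1. The genes were *Gja1* (Cx43), *Gja5* (Cx40), *Gjc1* (Cx45), *Gja4* (Cx37) and *Gja3* (Cx46), and every probe set annotated to 1 of them alone was taken, whatever its value. These are 5 of the 18194 genes, and 12 of the 45101 probe sets, of the array, 6 for *Gja1*, 1 for *Gja5*, 2 for *Gjc1*, 1 for *Gja4* and 2 for *Gja3*. The 3 2lox/2lox embryos were homozygous for the floxed, unrecombined *Kdm1a* allele, which carries a pair of point mutations in the tower domain and still gives a protein, although the labels also call these embryos knock-out. The 5 other embryos were wild-type. The allele is inherited, so every cell of a 2lox/2lox embryo carries it. Hearts were dissected whole at E18.5 and each was read on a separate Affymetrix Mouse430 array, so each value is a mixture over atria, ventricles, vessels and valves.

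A gap junction is a cluster of channels that join the cytoplasm of neighbouring cells, and each cell contributes a ring of connexin subunits to each channel. In the heart these channels carry the action potential from cell to cell: Cx43 is the main subunit of the working ventricular muscle, Cx40 of the atria, the His bundle and Purkinje fibres and of arterial endothelium, and Cx45 of the nodes and of the early heart tube. Cx37 is a connexin of vascular endothelium, and Cx46 is best known from the fibre cells of the lens.

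The start regions of *Gja5* and *Gja1* are shown because the balance of these connexins within each heart is compared later. RefSeq (GRCm38.p6) held the 250 bases before the gene start for 4 of the 5 genes, with no entry for *Gjc1*. The windows lie at chr3:97032152-97032401 (+) for *Gja5* and at chr10:56377050-56377299 (+) for *Gja1*, and capitals mark matches to the motifs searched:

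Gja5: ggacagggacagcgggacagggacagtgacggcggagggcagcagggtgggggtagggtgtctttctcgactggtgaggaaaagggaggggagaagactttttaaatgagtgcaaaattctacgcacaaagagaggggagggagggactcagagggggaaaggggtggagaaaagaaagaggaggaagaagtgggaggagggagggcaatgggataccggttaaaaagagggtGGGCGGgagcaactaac

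Gja1: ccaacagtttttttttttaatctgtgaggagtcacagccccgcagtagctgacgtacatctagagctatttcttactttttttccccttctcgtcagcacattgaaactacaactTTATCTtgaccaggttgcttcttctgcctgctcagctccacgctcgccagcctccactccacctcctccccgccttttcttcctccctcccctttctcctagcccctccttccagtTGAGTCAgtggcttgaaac

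Both strands were searched for 5 motifs, the T-box core (GGTGTG), the NKX2-5 site (TNAAGTG), the GATA site (AGATAA), the AP-1 site (TGANTCA) and the Sp site (GGGCGG). In *Gja5* an Sp match began 17 bases before the gene start. In *Gja1* a GATA match on the reverse strand began 135 bases before the start. An AP-1 match began 19 bases before the start, on both strands, since the pattern TGANTCA is its own reverse complement. *Gja4* had an Sp match beginning 79 bases before its start, and the windows of *Gja3* held none of the 5. Among the 32851 promoter windows of this length, 32.7% held the Sp letters, 16.3% the T-box core, 10.1% the NKX2-5 letters, 9.99% the GATA letters and 6.75% the AP-1 letters. A match describes letters only and says nothing of binding.

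In its brighter probe set *Kdm1a* itself read 9.44, 9.53 and 9.55 in the 2lox/2lox hearts, below 10.26 to 10.36 in the wild-type hearts (log2 difference -0.81, standard error 0.06, limma adjusted p = 5.15e-04). Values are log2 expression levels normalized by the authors, with array medians of 5.03 to 5.10, and levels close to 4.21, the lower quartile over the array, may be background only. The ventricular markers averaged 11.58 to 11.76 in 2lox/2lox hearts and 11.38 to 11.62 in wild-type hearts, while lung and epithelial markers averaged 5.08 to 5.27 in 2lox/2lox hearts and 5.10 to 5.26 in wild-type hearts. The array also reads *Actb* and *Gapdh* with controls near either end of the transcript, and the 3′ minus 5′ log2 difference grows as RNA is less intact. It was 0.522, 0.499 and 0.330 in 2lox/2lox hearts 1, 2 and 3, against 0.321 to 0.380 in the wild-type hearts. Thus 2lox/2lox hearts 1 and 2 stood apart from the other 6.

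Genotypes were compared with limma (two-sided), and Benjamini-Hochberg adjustment ran across the 45101 probe sets, with 0.05 as the limit. None of the 12 connexin probe sets passed, against 0.0798% of all probe sets (0.0621% higher and 0.0177% lower in 2lox/2lox hearts). With limma p-values left unadjusted, *Gja5* alone was under 0.05, and it was lower in 2lox/2lox hearts. Of all probe sets 10.9% were under that limit, 5.97% higher and 4.94% lower. The ranges of the 2lox/2lox and wild-type hearts overlapped in all 12, and in 6.11% of all probe sets they did not. The log2 difference was below 0 in 6 of the 12, and in 51.5% of all probe sets.

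**Figure D1:**
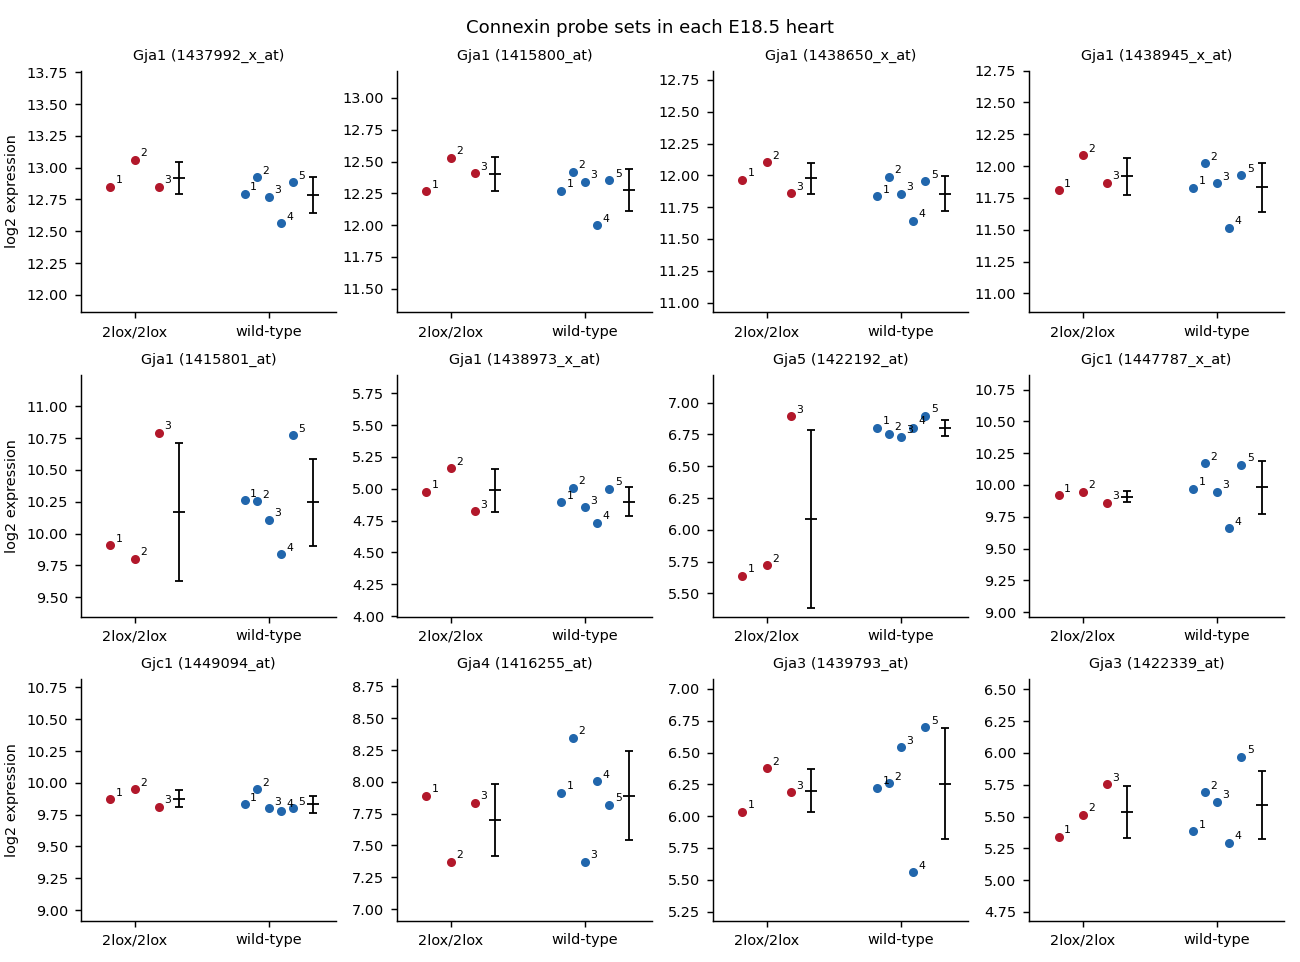
Log2 expression of the 12 connexin probe sets (1 panel each) in each heart, with 2lox/2lox hearts in red on the left and wild-type hearts in blue on the right. Digits are heart numbers, bars are the mean ± SD (n = 3 and n = 5), every axis spans the same number of log2 units and none starts at 0. *Gja5* is low in 2lox/2lox hearts 1 and 2 (5.64 and 5.72) and at 6.89 in 2lox/2lox heart 3, and wild-type heart 4 is the lowest wild-type heart for all 6 *Gja1* probe sets.

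*Gja1*, the ventricular connexin, had log2 differences between -0.08 and 0.13 in its 6 probe sets, none past the threshold. Its brightest probe set (1437992_x_at) read 12.85, 13.06 and 12.85 in the 2lox/2lox hearts and 12.79, 12.93, 12.77, 12.56 and 12.88 in wild-type hearts 1 to 5. The 2lox/2lox values lay in the upper part of the wild-type range and only heart 2 was above it. The log2 difference was 0.13 (standard error 0.09, limma adjusted p = 0.658), a fold of 1.10 with a 95% interval of 0.954 to 1.26.

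The other bright *Gja1* probe sets gave a like picture. The probe set 1415800_at read 12.27, 12.53 and 12.41 in the 2lox/2lox hearts and 12.27, 12.42, 12.34 and 12.35 in wild-type hearts 1, 2, 3 and 5, with wild-type heart 4 below these, a log2 difference of 0.12 (limma adjusted p = 0.721). The probe sets 1438650_x_at and 1438945_x_at had log2 differences of 0.12 (limma adjusted p = 0.688) and 0.09 (limma adjusted p = 0.840). The suffix x marks probe sets with probes that also match other sequences, so their levels may hold signal that is not from *Gja1*. The dimmest *Gja1* probe set, 1438973_x_at, read 4.98, 5.16 and 4.82 in the 2lox/2lox hearts, against 4.73 to 5.01 in wild-type hearts, a log2 difference of 0.09 (limma adjusted p = 0.792).

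One *Gja1* probe set, 1415801_at, varied apart from the other 5. It read 9.91, 9.80 and 10.79 in the 2lox/2lox hearts and 10.26, 10.25, 10.11, 9.84 and 10.77 in wild-type hearts 1 to 5. 2lox/2lox heart 3 and wild-type heart 5 were the high ones, so both genotypes spanned nearly the same range. The log2 difference was -0.08 (standard error 0.24, 95% interval -0.61 to 0.46, limma adjusted p = 0.950). Over the 8 hearts the other 5 probe sets correlated with each other at r between 0.756 and 0.973, and 1415801_at correlated with them at r between -0.131 and 0.280. These correlations share arrays and a gene and are descriptions. When the 3′ minus 5′ control difference entered the fit, the log2 difference of 1415801_at was 0.41 (limma adjusted p = 0.9999), and without 2lox/2lox hearts 1 and 2 it was 0.55 (limma adjusted p = 0.99997).

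Of 8 measured markers of ventricular myocardium, the tissue where *Gja1* is the main connexin, none passed the limma test (1 higher at an unadjusted p under 0.05), and their median log2 difference was 0.05, where the median of all probe sets was -0.00. *Irx4*, a ventricular transcription factor gene, read 8.79, 8.75 and 8.39 in the 2lox/2lox hearts, against 8.06 to 8.55 in wild-type hearts, a log2 difference of 0.31 (limma adjusted p = 0.426). *Hey2*, a Notch target of the compact ventricular wall, had 0.30, and the potassium channel subunit gene *Kcne1* had 0.40, neither past the threshold. *Kcne1* read 9.51 to 9.80 in the 2lox/2lox hearts, against 8.48 to 9.73 in wild-type hearts. *Mpped2*, another marker of the list, had -0.08, the only 1 of the 8 below 0.

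*Gja5*, the connexin of atria, conduction fibres and arteries, had the largest difference of the 5 genes and split the 2lox/2lox hearts. Its only probe set (1422192_at) read 5.64, 5.72 and 6.89 in 2lox/2lox hearts 1, 2 and 3 and 6.80, 6.75, 6.73, 6.80 and 6.90 in wild-type hearts 1 to 5. 2lox/2lox hearts 1 and 2 lay below every wild-type heart, and 2lox/2lox heart 3 lay at the top of the wild-type range. The means were 6.08 ± 0.70 in 2lox/2lox hearts (SD, n = 3) and 6.80 ± 0.06 in wild-type hearts (SD, n = 5). The log2 difference of -0.71 (standard error 0.23, 95% interval -1.23 to -0.19) is a fold of 0.610. It did not pass the test (limma adjusted p = 0.320). An exact permutation test over the 56 regroupings of the hearts, two-sided, gave p = 0.0893, where the smallest p that 3 against 5 hearts allows is 0.0179.

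The low hearts for *Gja5* were those with the larger 3′ minus 5′ difference of the control probe sets. Entered in the fit beside genotype, this control difference left *Gja5* with a log2 difference of -0.05 (standard error 0.11, limma adjusted p = 0.9999). Without 2lox/2lox hearts 1 and 2 it was 0.10, with 2lox/2lox heart 3 alone for its genotype and assumed to vary like the wild-type hearts. Without 2lox/2lox heart 3 it was -1.12 (limma adjusted p = 6.42e-04), where 797 of all 45101 probe sets passed. For 2lox/2lox hearts 1 and 2, the parts of genotype and of RNA quality in the *Gja5* values cannot be told apart.

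**Figure D2:**
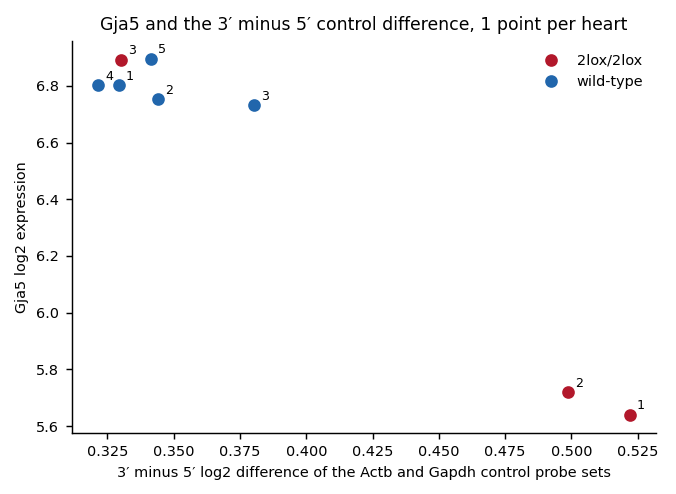
*Gja5* log2 expression (y axis) against the 3′ minus 5′ control difference, in log2 units, from *Actb* and *Gapdh* (x axis), 1 point per heart with its number, 2lox/2lox in red and wild-type in blue. 2lox/2lox hearts 1 and 2 lie alone at 0.522 and 0.499 with *Gja5* at 5.64 and 5.72, and 2lox/2lox heart 3 lies among the wild-type hearts on both axes.

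Of 11 measured markers of atrial myocardium, where Cx40 is made, none passed the limma test. The median log2 difference was -0.27, 8 of 11 lay below 0, and 4 lower and 0 higher had p under 0.05 before adjustment. Over the whole array 51.5% of probe sets lay below 0, and 4.94% were lower and 5.97% higher at that limit. *Bmp10*, a growth factor gene of the atrial wall, read 5.49, 5.74 and 5.80 in the 2lox/2lox hearts, against 5.88 to 6.28 in wild-type hearts, a log2 difference of -0.41 (limma adjusted p = 0.234). *Kcnj3*, a subunit of the acetylcholine-gated atrial potassium channel, read 5.61, 5.93 and 6.17 in the 2lox/2lox hearts, against 6.19 to 6.51 in wild-type hearts, a log2 difference of -0.40 (limma adjusted p = 0.281). For both genes all 3 2lox/2lox hearts lay below the wild-type range, a pattern seen in 2.71% of all probe sets, and 2lox/2lox heart 3 was the nearest to it.

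*Kcna5*, the channel gene of the ultrarapid potassium current of human atria, read 6.89, 6.62 and 6.72 in the 2lox/2lox hearts, against 6.84 to 7.31 in wild-type hearts, a log2 difference of -0.38 (limma adjusted p = 0.264). *Nppa*, which encodes atrial natriuretic peptide, read 13.19, 13.54 and 13.69 in the 2lox/2lox hearts, against 13.56 to 13.82 in wild-type hearts, a log2 difference of -0.27 (limma adjusted p = 0.393). The mean level of the 11 atrial markers was 8.46, 8.45 and 8.81 in 2lox/2lox hearts 1, 2 and 3, against 8.40 to 9.06 in wild-type hearts, so the list as a whole overlapped. The lower 2lox/2lox values were those of hearts 1 and 2, which also had the larger 3′ minus 5′ differences and the lower *Gja5* levels. The lowest mean of all hearts, 8.40, was that of wild-type heart 3, where *Gja5* read 6.73, close to the other wild-type hearts. In whole hearts, fewer atrial cells and less RNA per atrial cell cannot be told apart, and the part of the atrial share in the *Gja5* values was not tested.

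*Gjc1*, the connexin of the nodes, was measured by 2 probe sets, neither past the threshold. The brighter one, 1447787_x_at, read 9.92, 9.95 and 9.86 in the 2lox/2lox hearts and 9.97, 10.17, 9.95, 9.66 and 10.16 in wild-type hearts 1 to 5. The 2lox/2lox hearts lay close together inside the wild-type range (log2 difference -0.07, 95% interval -0.31 to 0.17, limma adjusted p = 0.871). The other, 1449094_at, read 9.87, 9.95 and 9.81 in the 2lox/2lox hearts, against 9.78 to 9.95 in wild-type hearts, with a log2 difference of 0.04 (95% interval -0.09 to 0.18, limma adjusted p = 0.861). The exact permutation test over hearts, two-sided, gave p = 0.536 for the brighter *Gjc1* probe set, 0.286 for that of *Gja1*, 0.393 for *Gja4* and 0.857 for the brighter one of *Gja3*.

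Of 18 listed genes of the conduction system 14 were measured and none passed the limma test, with a median log2 difference of -0.03 and, before adjustment, 1 higher and 1 lower at p under 0.05. *Hcn4*, a defining gene of the sinus node, was not analysed here. *Cacna1d*, an L-type calcium channel gene of pacemaker cells, read 5.81, 5.98 and 5.71 in the 2lox/2lox hearts, against 5.97 to 6.18 in wild-type hearts, a log2 difference of -0.25 (limma adjusted p = 0.294). *Cacna1g*, a T-type calcium channel gene, had 0.32 (limma adjusted p = 0.366). The 2 calcium channel genes thus had opposite signs, and neither passed the threshold. The list also held *Kcne1* (0.40), described above with the ventricular markers, and *Cpne5* (-0.18), neither past the threshold.

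*Gja4*, the endothelial connexin, read 7.89, 7.37 and 7.83 in the 2lox/2lox hearts and 7.92, 8.34, 7.37, 8.01 and 7.82 in wild-type hearts 1 to 5. 2lox/2lox heart 2 and wild-type heart 3 shared the lowest level, and the log2 difference was -0.19 (standard error 0.19, 95% interval -0.62 to 0.23, limma adjusted p = 0.791). The difference was -0.029 without 2lox/2lox heart 2 and -0.079 without wild-type heart 2, and -0.015 when the 3′ minus 5′ control difference entered the fit. *Gja4* lies on chromosome 4 within 20 Mb of *Kdm1a* (GRCm38.p6), and is the only 1 of the 5 genes to do so. Of 20 measured endothelial and arterial markers none passed the limma test (1 higher and 2 lower before adjustment), with a median log2 difference of 0.05. *Tie1*, an endothelial receptor gene, had 0.22, the arterial kinase gene *Bmx* -0.25 and the venous and capillary gene *Emcn* -0.15.

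*Gja3* had the widest spread of the 5 genes among the wild-type hearts. Its brighter probe set, 1439793_at, read 6.04, 6.38 and 6.19 in the 2lox/2lox hearts and 6.22, 6.26, 6.54, 5.56 and 6.70 in wild-type hearts 1 to 5. Wild-type heart 4 was the lowest and wild-type heart 5 the highest of the 8, and the log2 difference was -0.06 (95% interval -0.53 to 0.42, limma adjusted p = 0.962). The other probe set, 1422339_at, read 5.34, 5.51 and 5.75 in the 2lox/2lox hearts, against 5.29 to 5.97 in wild-type hearts, a log2 difference of -0.05 (limma adjusted p = 0.941). Lens markers, the genes of the organ *Gja3* is best known from, averaged 5.96 to 6.02 in 2lox/2lox hearts and 5.92 to 6.02 in wild-type hearts. Their levels differed, and other members raised this average. Wild-type means were 5.82 for *Cryaa*, 4.67 for *Bfsp1*, 4.33 for *Crygd* and 4.14 for *Cryba1*, the last 2 near the lower quartile of 4.21. Of the list, 0 of 6 passed the limma test (before adjustment, p was under 0.05 for 0 of them).

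**Figure D3:**
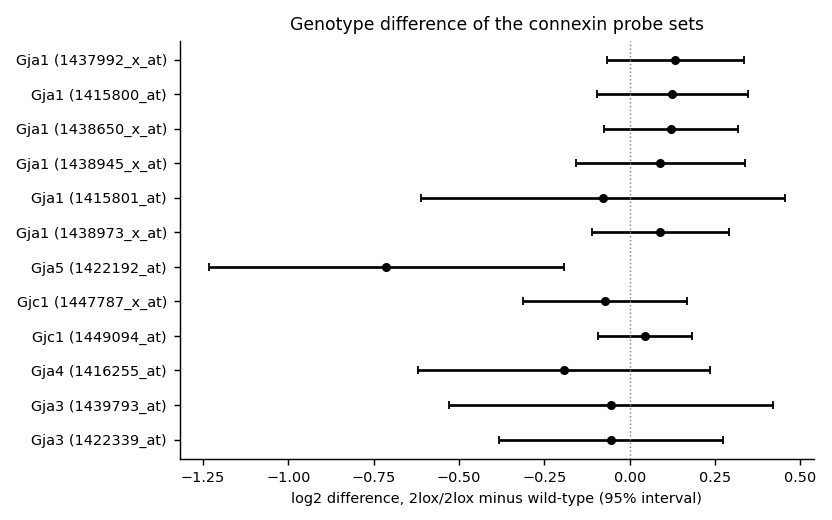
Log2 difference (2lox/2lox minus wild-type, x axis) of the 12 connexin probe sets with its 95% interval from the limma fit over 8 hearts. The interval of *Gja5*, -1.23 to -0.19, is the only one that leaves out 0, and it is not adjusted for the number of probe sets.

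The balance of connexins was also taken within each heart, as the log2 level of 1 gene minus that of another on the same array. The size of such a value depends on the probes and has no meaning of its own, so only its change between hearts was read. Probe sets also varied with the 3′ minus 5′ control difference unlike each other. Over the 8 hearts r with it was -0.98 for *Gja5* and 0.51 for the brightest *Gja1* probe set. The control difference sets 2lox/2lox hearts 1 and 2 apart, so such r rests largely on them and cannot tell genotype from RNA quality. The part of RNA quality in the balances was not tested. *Gja5* minus *Gja1* was -7.21, -7.34 and -5.96 in 2lox/2lox hearts 1, 2 and 3, against -6.17 to -5.76 in wild-type hearts. 2lox/2lox heart 3 again lay with the wild-type hearts, and the difference of means, -0.85, had p = 0.0893 by the exact permutation test (two-sided, adjusted p = 0.134 over the 3 balances tested).

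*Gjc1* minus *Gja1* was -2.93, -3.12 and -2.99 in the 2lox/2lox hearts, against -2.83, -2.75, -2.82, -2.90 and -2.72 in wild-type hearts 1 to 5. Every 2lox/2lox heart lay below every wild-type heart, by as little as the step between -2.93 and -2.90. The difference of means was -0.21 (exact permutation p = 0.0179, the smallest this design allows, adjusted p = 0.0536), and it did not pass. With the other *Gjc1* probe set it was -0.09 (exact permutation p = 0.286), and with the mean of all probe sets of each gene -0.09 (exact permutation p = 0.196), so the separation rests on the choice of probe set. *Gja4* minus *Gja5* was 2.25, 1.65 and 0.94 in the 2lox/2lox hearts, against 0.64 to 1.59 in wild-type hearts, a difference of 0.52 (exact permutation p = 0.196, adjusted p = 0.196). Without 2lox/2lox heart 3 the differences were -1.29, -0.22 and 0.86 in the order given, each with an adjusted exact permutation p of 0.0476, the smallest that 2 against 5 hearts allows.

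**Figure D4:**
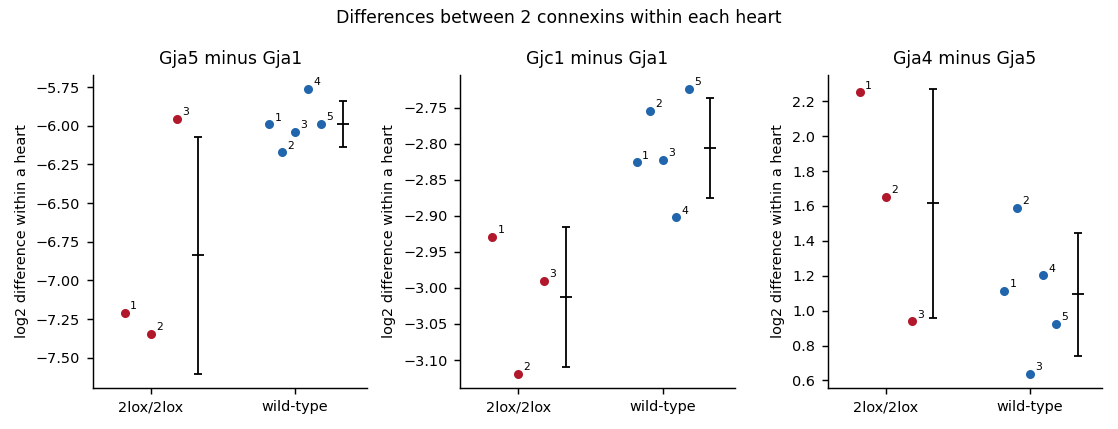
Log2 difference between 2 connexins within each heart (y axis) for *Gja5* minus *Gja1*, *Gjc1* minus *Gja1* and *Gja4* minus *Gja5*, with 2lox/2lox hearts in red on the left and wild-type hearts in blue on the right; digits are heart numbers, bars the mean ± SD (n = 3 and n = 5), and axes differ between panels. For *Gjc1* minus *Gja1* the 2lox/2lox hearts, -3.12 to -2.93, lie below all wild-type hearts, and for *Gja5* minus *Gja1* only 2lox/2lox hearts 1 and 2 do.

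Of the 15 other connexin genes listed, 9 had a probe set of their own and were measured, and 2 of these had a mean under the lower quartile of all values. None passed the limma test (before adjustment, p was under 0.05 for 0 of them), and their median log2 difference was -0.04. Their mean level was 4.21 to 4.38 in 2lox/2lox hearts and 4.31 to 4.45 in wild-type hearts, against a lower quartile of 4.21 over all values. *Gjd2*, the neuronal connexin 36 gene, was the brightest and averaged 5.13 in 2lox/2lox hearts and 5.28 in wild-type hearts, near the array's median of 5.07. It was named after its values were seen. *Gjc3*, a connexin of glia, had the smallest p of them, with a log2 difference of -0.17. The pannexins, which form channels related in shape to those of connexins, gave 0 of 3 past the threshold (before adjustment, p was under 0.05 for 0 of them), and *Panx1*, the widely expressed one, had a log2 difference of 0.01.

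Genes for proteins that anchor, carry or modify connexins did not pass the threshold either. Of 24 measured scaffold and trafficking partners none passed the limma test, with a median of 0.03 and, before adjustment, 3 higher and 0 lower at p under 0.05. Log2 differences were above 0 for 19 of the 24 and below 0 for 5. Of all probe sets 51.5% were below 0, and before adjustment 5.97% were higher and 4.94% lower at p under 0.05. Of the 3 partners higher before adjustment, *Tjp3*, a zonula occludens scaffold gene, had a log2 difference of 0.32 (limma adjusted p = 0.354). *Ctnna1*, the alpha-catenin gene, had 0.15 (limma adjusted p = 0.401), and *Jup*, the plakoglobin gene, 0.37 (limma adjusted p = 0.403). All 3 2lox/2lox hearts read higher than every wild-type heart for *Ctnna1*, at 12.36, 12.43 and 12.40 in 2lox/2lox hearts and 12.16 to 12.31 in wild-type hearts, and the same held for *Tjp3* and for *Vcl*, the vinculin gene, which was named after its values were seen (11.31 to 11.40 in 2lox/2lox hearts, against 10.97 to 11.28 in wild-type hearts). These were 3 of 24, and the same held in 3.41% of all probe sets. For *Jup* the 2lox/2lox hearts read 7.99, 8.12 and 7.70 and the wild-type hearts 7.10 to 7.75, so these overlapped. Of 18 measured kinase and turnover genes none passed the limma test (2 higher at an unadjusted p under 0.05), and the median was 0.00. *Prkcd*, a protein kinase C gene, had 0.19, and *Akt1*, another kinase gene, 0.22.

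Of 27 measured regulators of connexin genes none passed the limma test, with a median of 0.04 and, before adjustment, 4 higher and 1 lower at p under 0.05. Over the whole array 5.97% of probe sets were higher and 4.94% lower at that limit. *Gata4*, a cardiac transcription factor gene, read 9.71, 9.73 and 9.44 in the 2lox/2lox hearts, all above 9.17 to 9.42 in the wild-type hearts, with a log2 difference of 0.36 (limma adjusted p = 0.228). *Nkx2-5*, a cardiac homeobox gene whose product regulates *Gja5*, read 9.99, 9.92 and 9.78 in the 2lox/2lox hearts, against 9.41 to 9.80 in wild-type hearts, a log2 difference of 0.27 (limma adjusted p = 0.336). *Hey1*, a Notch target gene of atria and arteries, read 6.88, 6.94 and 7.09 in the 2lox/2lox hearts, against 7.08 to 7.36 in wild-type hearts, a log2 difference of -0.27 (limma adjusted p = 0.290). For each of these 3, 2lox/2lox heart 3 was the 2lox/2lox heart nearest to the wild-type values, as for *Gja5*, though by a narrower gap. 2lox/2lox hearts 1 and 2 also had the larger 3′ minus 5′ differences, and the part of RNA quality in these values was not tested.

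**Figure D5:**
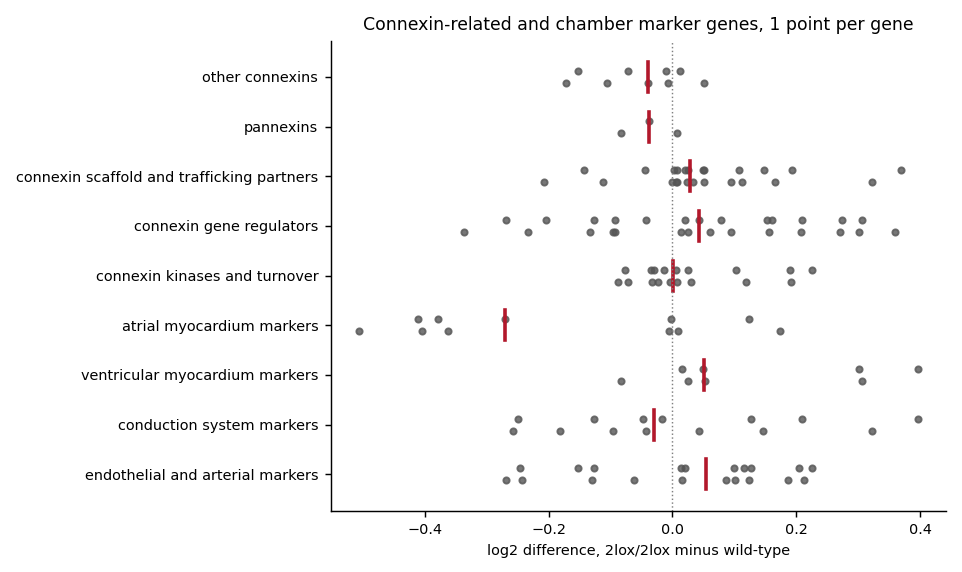
Log2 difference (2lox/2lox minus wild-type, x axis) of each measured gene of 9 lists, 1 point per gene by its brightest probe set, points offset up and down only to keep them apart, with the list median as a red line. The atrial markers have a median of -0.27 and the other lists shown lie between -0.04 and 0.05, and no gene shown passed the threshold.

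Markers of other cells that a whole heart could hold were also read. Of 10 measured myeloid markers 2 rose, *Lgals3* by 0.88 (limma adjusted p = 0.0240) and *Cybb* by 0.83 (limma adjusted p = 0.0346), and the mean level of the list was 6.86 to 7.19 in 2lox/2lox hearts and 6.39 to 6.74 in wild-type hearts, which did not overlap. Log2 differences were above 0 for 10 of the 10, with a median of 0.35, and before adjustment 7 were higher and 0 lower at p under 0.05. Over the whole array 51.5% of probe sets were below 0, and before adjustment 5.97% were higher and 4.94% lower at p under 0.05. Of 9 measured skeletal muscle markers 1 rose, *Tnni2*, a fast troponin gene, by 1.32 (limma adjusted p = 0.0240), with mean levels of 7.12 to 7.33 in 2lox/2lox hearts and 6.66 to 7.25 in wild-type hearts. The median log2 difference of these 9 was 0.16, and before adjustment 3 were higher and 0 lower at p under 0.05. The smooth muscle and pericyte list had 0 of 11 past the limma threshold and 3 higher at an unadjusted p under 0.05, with a median of 0.07. The fibroblast and epicardial list had 0 of 12 past it, with a median of -0.08 and, before adjustment, 1 higher and 1 lower at p under 0.05. Its members differed in sign, with *Tcf21*, an epicardial gene, at -0.45 (limma adjusted p = 0.228), the collagen gene *Col1a1* at 0.44 (limma adjusted p = 0.438) and the matrix gene *Dpt* at 0.43 (limma adjusted p = 0.665). Erythroid markers, whose mean level was 5.48 to 6.21 in 2lox/2lox hearts and 4.995 to 6.64 in wild-type hearts, had 0 of 5 past the limma threshold (before adjustment, p was under 0.05 for 0 of them), and likewise none of the 8 lung and epithelial, 6 neuronal and glial and 4 liver markers had p under 0.05 before adjustment. The part of these cells in the connexin values was not tested.

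For each connexin the genes with the most similar pattern over the 8 hearts were taken by Pearson r among 11973 genes, as a description. *Gja1* was followed most closely by *Afg3l2* (r = 0.965), *Tmem164* (r = 0.959) and *Adcy7* (r = 0.955), and *Gja5* by *Map1lc3b* (r = 0.983), *Rtf1* (r = 0.980) and *Rab18* (r = 0.979). The *Gja5* values lie in 2 clusters, so its r rests on 2lox/2lox hearts 1 and 2: *Map1lc3b* read 10.66, 10.76 and 11.13 in 2lox/2lox hearts 1, 2 and 3, against 11.01 to 11.11 in wild-type hearts. *Gjc1* was followed by *Phip* (r = 0.970), *Plcb4* (r = 0.948) and *Zfp93* (r = 0.944), and *Gja4* by *Pla2g4a* (r = 0.957), *Pigh* (r = 0.952) and *Ttc26* (r = 0.951). *Gja3* had the closest match, *Lmbr1* (r = 0.987), then *Ndufa4l2* (r = 0.984) and *Tm6sf1* (r = 0.975). The points share arrays and RNA quality, and these r values were the highest of many, so they describe these hearts only.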

How the data were processed

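Total RNA from 8 E18.5 mouse hearts (3 2lox/2lox, 5 wild-type) was hybridized to Affymetrix Mouse430 arrays, 1 per heart. The table the authors deposited gives log2 levels for 45101 probe sets, already normalized across arrays. The submitters' processing notes list limma with no version. How probes were summarized and normalized is not given in the sources. That method can move dim probe sets most. Arrays have no read depth, and the number of hearts limits the precision. The SD of a probe set had a median of 0.10 in either genotype.

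Genotypes were taken from the labels. Fits used limma 3.58.1 in R 4.3.3 (lmFit, then plain eBayes), two-sided, over all 8 hearts, and p-values were adjusted by Benjamini-Hochberg over the whole array. Single values were also tested by exact permutation over hearts. Probe sets were named from the platform annotation, updated through a RefSeq gene table of GRCm38.p6 that matched 99.4% of the 34958 probe sets with 1 gene. A gene on a list was represented by its brightest probe set. Every connexin probe set was named, and of each list all members past the threshold and up to 4 others of smallest p. The connexins and the lists were chosen with earlier results of these data known. Hearts with the same replicate number were not treated as pairs. Alternatives were other moderation, normalization, dim filters, array weights, the replicate number, a sex score, the 3′ minus 5′ control difference, a fold of 1.4, and each heart left out. Leaving out 2lox/2lox hearts 1 and 2 together, and the alternatives for the within-heart balances, were added after the data were seen. The fit was tested on simulated data with known folds.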

Additional observations from a re-analysis of the deposited data

Results flagged for a closer look

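The 5 wild-type hearts were checked for single values far from the rest in 101 probe sets. These were those of the connexins and *Kdm1a*, the list members chosen for naming and the genes of most similar pattern, not the whole lists. In 5 of them the gap of the farthest heart to its nearest neighbour, as a share of the whole range, passed Dixon's limit. Chance flags about 1 in 20 groups, which is about the number seen here. The connexin among them was *Gjc1* (1449094_at), with 9.95 in wild-type heart 2 against 9.78 to 9.83 in the other 4 (share 0.713). *Jup* read 7.10 in wild-type heart 4 against 7.65 to 7.75 (share 0.840), and *Afg3l2* 8.56 in the same heart against 8.68 to 8.73 (share 0.726). *Prph* read 4.96 in wild-type heart 4 against 4.67 to 4.72 (share 0.828), and *Nppa* 13.56 in wild-type heart 5 against 13.76 to 13.82 (share 0.759).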

How the results depend on the processing

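No connexin probe set passed in the fit over all hearts, and 0 passed under any alternative except without 2lox/2lox heart 3, where *Gja5* did, so that the count was 0 to 1 with single hearts left out. The log2 difference of *Gja5* was -1.12 to -0.49 with single hearts left out and 0.10 without 2lox/2lox hearts 1 and 2. With single hearts left out, the within-heart difference was -1.29 to -0.59 for *Gja5* minus *Gja1* and -0.25 to -0.15 for *Gjc1* minus *Gja1*. For *Gja4* minus *Gja5* it was 0.20 to 0.86. Each passed only without 2lox/2lox heart 3, with an adjusted exact permutation p of 0.0476, the smallest possible. For the balances with *Gja5*, 2lox/2lox heart 3 was the only 2lox/2lox heart in the wild-type range, so leaving it out fixed the separation. For *Gjc1* minus *Gja1*, the same exact permutation p without 2lox/2lox heart 1 had an adjusted p of 0.143.

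Small differences changed sign. When the 3′ minus 5′ control difference entered the fit, *Gja1* had 0.41 (1415801_at) and -0.042 (1438973_x_at), *Gjc1* -0.0043 (1449094_at) and *Gja3* 0.086 (1422339_at), and without 2lox/2lox hearts 1 and 2 the same probe sets had 0.55, -0.074, -0.021 and 0.16. With single hearts left out, 1415801_at of *Gja1* ran from -0.39 to 0.10, and *Gja3* from -0.23 to 0.055 (1439793_at) and from -0.16 to 0.042 (1422339_at). Without a change of sign, and over all alternatives, 1437992_x_at of *Gja1* ran from 0.062 to 0.17, 1447787_x_at of *Gjc1* from -0.15 to -0.026 and *Gja4* from -0.32 to -0.015. None of these passed the threshold under any alternative, and the cause was not tested.

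The 36 probe sets past the threshold over the whole array became 9 with the 3′ minus 5′ covariate, 6 without 2lox/2lox hearts 1 and 2, and 17 to 797 with single hearts left out. The 3 members of the lists became 0, 0 and 0 to 6. With the replicate number as a block, which leaves 2 residual degrees of freedom, 0 probe sets, 0 list members and 0 connexins passed, and *Gja5* had -0.68 (limma adjusted p = 0.662). The numbers are not said to pair the hearts. The paper describes the 2 genotypes as littermates, but which hearts shared a litter is not given. The deviations of same-numbered hearts correlated at 0.01, -0.08 and -0.05, which cannot show whether they shared a litter. The wide intervals of *Gja4* and *Gja3* leave room for changes that 3 against 5 hearts cannot show.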
